A study of Mus musculus with 16 samples.

Results

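The 9 genes described here are the complement components C1qa, C1qb, C1qc, C3 and C4b, the anaphylatoxin receptors C3ar1 and C5ar1, the C1 inhibitor Serping1 and the integrin chain Itgam. They were listed by name, and all 9 had a row among the 30389 gene symbols of the count tables. The tables came from single-cell libraries of the whole neocortex of 1 hemisphere, taken at 17 months of age from THY-Tau22 mice of both sexes and from littermates without the transgene (WT). THY-Tau22 mice are heterozygous for a human tau transgene with the G272V and P301S mutations, driven in neurons by the Thy1.2 promoter. They came from transgenic males and C57Bl6/J females, from several litters, and were perfused with saline before the tissue was dissociated for Drop-seq, which labels each captured transcript with the barcode of its cell and a molecular identifier (UMI). The groups compared were 3 WT males, 3 THY-Tau22 (TG) males, 3 WT females and 5 TG females, labelled as 1 library per mouse, although the titles of WT male replicate 1 and TG female replicate 1 carry the same animal number. A further pair of tables, labelled WT male replicate 3 and TG male replicate 4, shared 2952 of 3000 barcodes, where the next closest of the 120 pairs shared 12, and both were left out of every value below unless stated.

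The complement system is a cascade of plasma and tissue proteins that tags cells and debris for removal. C1q, built from the A, B and C chains encoded by C1qa, C1qb and C1qc, binds its targets and starts the classical pathway, which cleaves C4 and then C3, and Serping1 blocks its proteases. Fragments of C3 are bound by the receptor that Itgam (CD11b) forms with Itgb2, and the small fragments C3a and C5a act through C3ar1 and C5ar1. In brain, C1q is made mainly by microglia, and complement has been studied there for its part in synapse removal.

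In the mm10 annotation C1qb, C1qc and C1qa lie in this order within 18.7 kb of chromosome 4 (C1qb at chr4:136880129-136886187, C1qc at chr4:136889804-136893065, C1qa at chr4:136895917-136898803, all on the minus strand). Itgam lies at chr7:128062640-128118491 on the plus strand. The RefSeq promoter table (GRCm38.p6) matched 6 of the 9 members and had no entry for C1qa, C4b and Serping1. The sequences of C1qb, C1qc and Itgam, which of the members with an entry had the largest differences in microglia between male groups, are given as the 250 bases before the start site, 5′ to 3′. Capitals mark GAGGAA on either strand, the core of the element bound by the myeloid factor PU.1:
C1qb (chr4:136886201-136886450, minus strand): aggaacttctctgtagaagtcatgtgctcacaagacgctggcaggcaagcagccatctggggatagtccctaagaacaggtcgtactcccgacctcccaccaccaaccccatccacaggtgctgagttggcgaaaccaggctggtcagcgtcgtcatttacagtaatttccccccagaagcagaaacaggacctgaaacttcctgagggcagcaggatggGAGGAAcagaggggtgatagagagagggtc
C1qc (chr4:136892915-136893164, minus strand): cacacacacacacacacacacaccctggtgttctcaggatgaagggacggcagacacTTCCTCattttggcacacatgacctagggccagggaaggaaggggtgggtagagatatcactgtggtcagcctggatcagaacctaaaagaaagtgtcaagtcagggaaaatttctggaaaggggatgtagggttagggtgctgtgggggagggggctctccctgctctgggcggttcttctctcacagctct
Itgam (chr7:128062390-128062639, plus strand): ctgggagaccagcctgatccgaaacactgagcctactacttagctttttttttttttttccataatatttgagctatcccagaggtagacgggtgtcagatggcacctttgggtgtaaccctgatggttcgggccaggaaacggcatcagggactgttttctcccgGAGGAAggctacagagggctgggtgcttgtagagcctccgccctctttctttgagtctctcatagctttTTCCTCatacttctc
GAGGAA occurred once before C1qb, from -30 to -25, once before C1qc, from -193 to -188, and in 2 places before Itgam, from -84 to -79 and from -15 to -10. It was absent from the same windows of C3, C3ar1 and C5ar1, and 23.3% of the 32851 promoters in the table held it. TTCNNNGAA, the palindrome bound by STAT factors, was in 7.02% of all promoters and in none of the 6. These are matches of letters in a short window and not measured binding. Positions count from the RefSeq start sites. For C1qc that site lies inside the gene span given above, which ends at 136893065, so part of its window overlaps that span.

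Values below are CPM: the UMIs of a gene summed over the cells of a class in a library, as a share of all UMIs of those cells, scaled to a total of 1000000. Drop-seq counts tags at 3′ ends, so values were not divided by gene length and are compared within a gene. Barcodes with 200 to 7000 detected genes were kept, 28530 of 48000 in all 16 tables, with 1121 to 2526 cells and a median of 429.0 to 736.5 UMIs per cell in the 14 libraries. The cells were clustered without any complement gene and classes were named "-like" from marker genes. Microglia-like cells numbered 6804, macrophage-like cells 439, astrocyte-like cells 4541, oligodendrocyte-like cells 4329 and endothelial-like cells 3328, and 6.80% of the cells stayed unnamed. TG male replicate 3 stood apart, with 28.7% of its cells in an unnamed cluster that held 1.07% to 5.53% of the other libraries. It had 245 microglia-like cells, the fewest of all, with a median of 1059 UMIs each, the most of all.

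C1qa, C1qb, C1qc and Itgam were genes of microglia-like and macrophage-like cells. Of the UMIs of each C1q chain, 81.7% to 83.9% were in microglia-like cells, and for Itgam 85.4%. C1qa averaged 2384 ± 908 CPM (SD, n = 14 libraries) in microglia-like cells and 2012 ± 1234 CPM in macrophage-like cells. C1qb averaged 2685 ± 1325 CPM and 2178 ± 1584 CPM in the same classes. Neither difference passed the exact two-sided sign-flip test over paired libraries (adjusted p = 0.376 for both, adjusted over 81 neighbouring pairs of classes). C1qc was 523 CPM higher in microglia-like cells, 2693 ± 1043 against 2170 ± 1035 CPM (higher in 11 of 14 libraries, exact sign-flip adjusted p = 0.0386). This call was lost on leaving out any 1 of 11 of the libraries (adjusted p from 0.0554 to 0.0771), with predicted doublets removed (0.131) and at a finer clustering (0.384). Without TG male replicate 3 it held, and C1qa and C1qb also were higher in microglia-like cells, by 525 and 668 CPM (adjusted p = 0.00494 and 0.0277).

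Itgam separated the same classes in every library. It averaged 1269 ± 245 CPM in microglia-like cells and 471 ± 176 CPM in macrophage-like cells, and was higher in microglia in 14 of 14 libraries (exact sign-flip adjusted p = 0.00141, the smallest this test allowed). With cells of at least 500 genes few libraries kept enough macrophage-like cells, and the Itgam difference of 643 CPM no longer passed (adjusted p = 0.488). The macrophage-like cluster was itself mixed. At a finer clustering it split into 161 cells that kept the name, 230 unnamed cells led by Cd74 and other antigen presentation genes and 48 microglia-like cells, with Itgam at 328, 504 and 730 CPM and C1qb at 1748, 3241 and 3468 CPM. Lpl, Spp1, Clec7a, Lgals3 and Ccl5 were also among the leading genes of the 230 unnamed cells. Of the marker lists, that of T or NK cells fitted their cluster best, with 4 of 9 markers raised, too few for a name.

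The receptors for C3a and C5a followed the same classes at lower levels. C3ar1 averaged 329 ± 126 CPM in macrophage-like and 286 ± 52.7 CPM in microglia-like cells, a difference of 43.1 ± 131 CPM (SD) that did not pass (exact sign-flip adjusted p = 0.902). C5ar1 averaged 81.2 ± 64.2 and 69.5 ± 27.6 CPM in these classes (adjusted p = 1.0). In microglia-like cells both receptors were above the next class in 14 of 14 libraries (exact sign-flip adjusted p = 0.00141 each). C3ar1 was 264 CPM above neurons there, and C5ar1 63.3 CPM above oligodendrocyte precursor cells. Macrophage-like cells were not tested against these classes, and their C5ar1 ranged from 0.0 to 181 CPM between libraries.

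**Figure D1:**
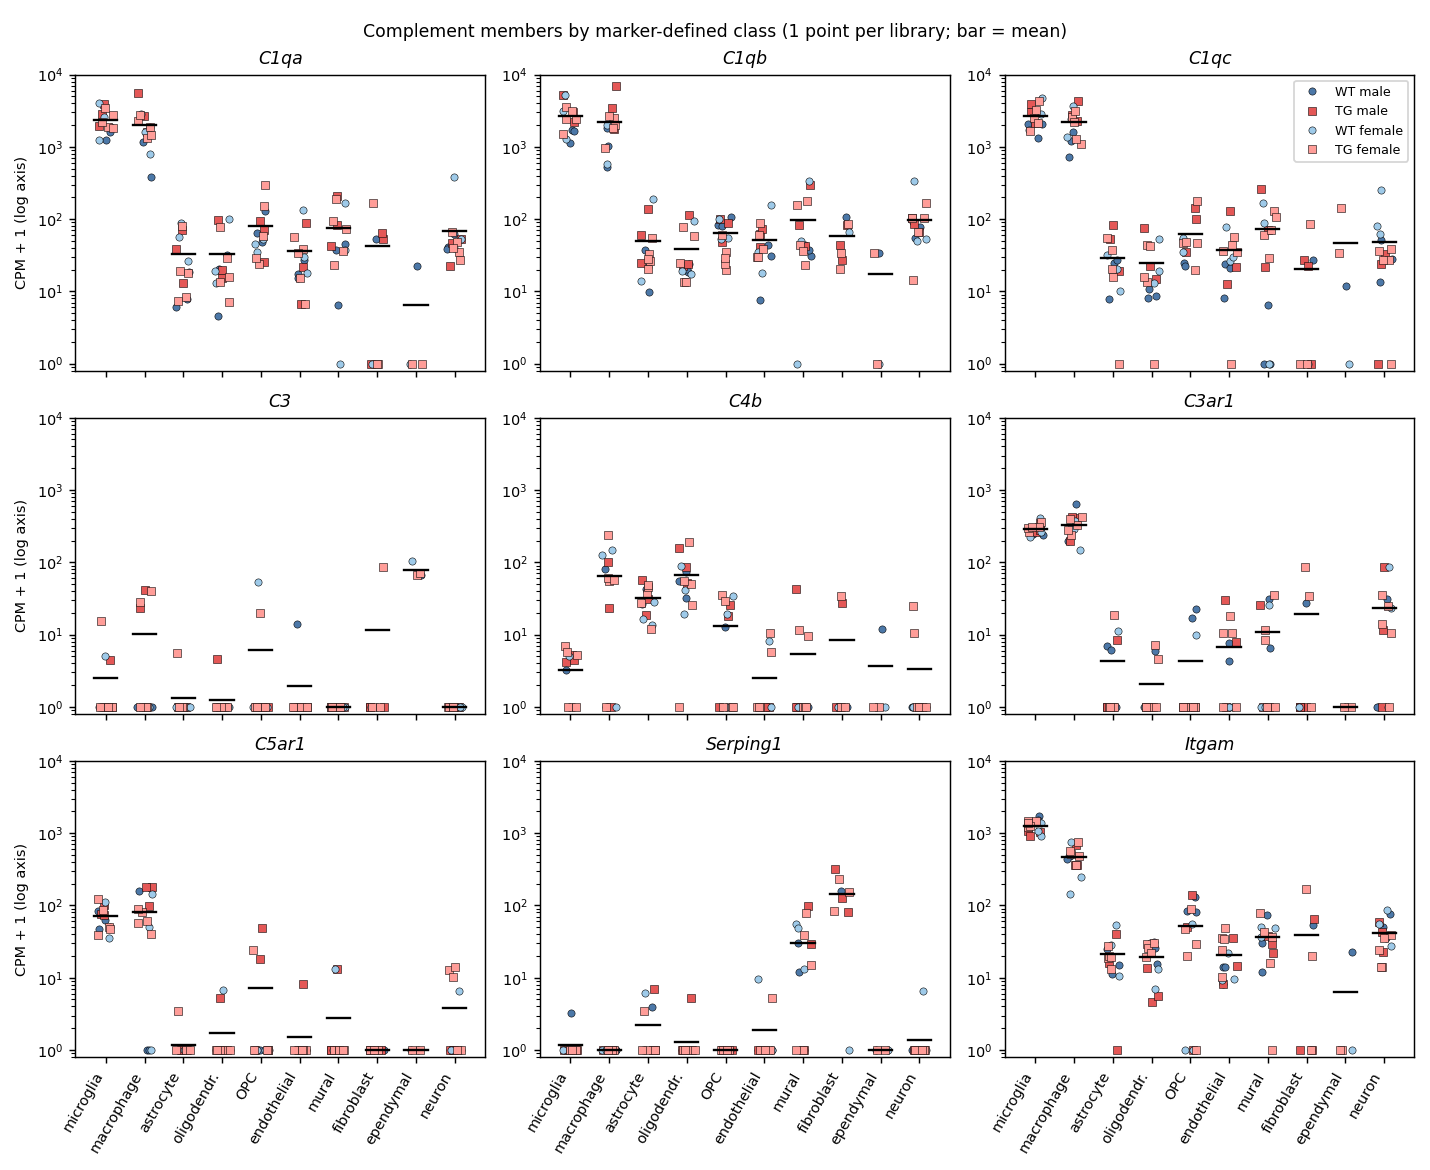
CPM plus 1 (log axis) of each of the 9 members in 10 marker-defined classes, with 1 point per library of at least 10 cells, coloured by group, and a bar at the mean; OPC, oligodendrocyte precursor cell. The C1q chains, Itgam, C3ar1 and C5ar1 are highest in microglia-like and macrophage-like cells, C4b in oligodendrocyte-like and macrophage-like cells, Serping1 in fibroblast-like and mural cells and C3 in ependymal-like cells.

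Per cell, detection followed depth. A UMI of C1qa was found in 63.8% of microglia-like cells, of C1qb in 64.2%, of C1qc in 67.4% and of Itgam in 46.5%. After each cell was thinned to 300 UMIs these shares were 45.9%, 47.5%, 50.4% and 31.1%. Astrocyte-like cells, taken as a class that should lack C1q, gave 1.81% for C1qa before and 0.786% after thinning, at a median of 551 UMIs against 502 in microglia-like cells. C3ar1 was detected in 14.2% of microglia-like cells and C5ar1 in 3.98%, and 7.78% and 2.06% after thinning, against 0.112% and 0 in astrocyte-like cells. At least 1 C1q chain was detected in all but 8.25% of microglia-like cells, and all 3 chains in 35.3%.

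Outside the myeloid classes, C1q and Itgam stayed at 0.755% to 3.93% of their microglia-like level on average in the 6 other classes present in every library. The summed microglia markers, among them P2ry12, Cx3cr1, Siglech, Tmem119 and Csf1r, were at 1.29% to 3.46% in the same classes. In astrocyte-like cells C1qa was at 1.19% ± 0.768 (SD, n = 14) of its microglia level, C1qb at 1.56% ± 0.840, Itgam at 1.76% ± 1.40 and the markers at 1.52% ± 0.553. C1qc was lower there, at 0.991% ± 0.544. In neurons C1qb was at 3.69% and C1qc at 1.69%, with the markers at 3.00%. Whether the C1q levels in these classes reflect expression was not tested. Barcodes under 200 genes, left out above, held all of these genes at 19.1% to 21.3% of the microglia level. In macrophage-like cells, the mixed class described above, the C1q chains were at 78.2% to 80.9% and the markers at 29.7%. C1q was thus not in the markers' ratio in that class.

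**Figure D2:**
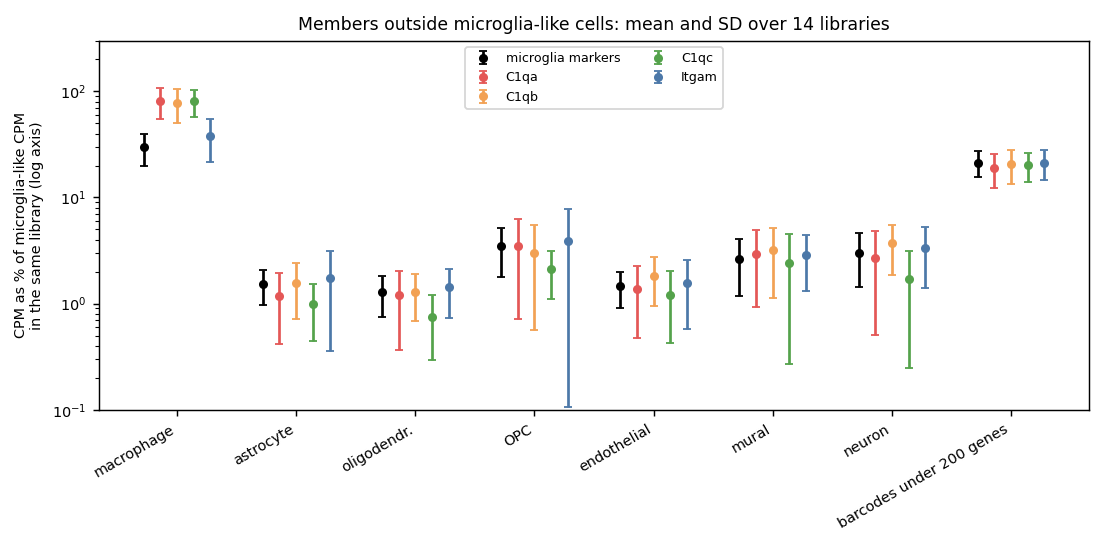
Level of the C1q chains, Itgam and the summed microglia markers (black) in each class as a percent of the microglia-like level of the same library (log axis), mean and SD over 14 libraries, with lower bars ended at 0.1%. The last position holds the barcodes under 200 genes. The C1q chains stand farthest from the markers in the macrophage-like class. OPC, oligodendrocyte precursor cell.

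C4b, which forms the covalent tag that follows C1q, had 54.1% of its 401 UMIs in oligodendrocyte-like cells and 23.4% in astrocyte-like cells. It averaged 65.1 ± 51.9 CPM in oligodendrocyte-like cells, 63.2 ± 71.2 CPM in macrophage-like cells and 30.8 ± 13.9 CPM in astrocyte-like cells (SD, n = 14). These 3 classes could not be ranked (exact sign-flip adjusted p = 1.0 and 0.564 for neighbours). Astrocyte-like cells were above oligodendrocyte precursor cells, at 12.0 ± 13.8 CPM, in 12 of 14 libraries (adjusted p = 0.0231, and 0.0901 with predicted doublets removed). Microglia-like cells held 10 C4b UMIs among 6804 cells, or 2.28 ± 2.20 CPM. At the finer clustering all 20 UMIs of the macrophage-like cluster were in the 161 cells that kept the name, at 178 CPM. C4b reads are uncertain, since C4a, 65.2 kb away on chromosome 17, has a 3′ end that is 97.6% identical to it over the last 500 bases, and the treatment of reads that match both was not given in the sources used here.

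Oligodendrocyte C4b varied widely between libraries. In WT males it was at 31.5, 72.6 and 53.7 CPM (replicates 1, 2 and 4) and in TG males at 158, 50.9 and 83.7 CPM. In WT females it was at 17.98, 87.4 and 40.7 CPM, and in TG females at 187, 24.7, 49.1, 0.0 and 53.3 CPM. TG female replicate 1 and TG male replicate 1 were the highest, and the groups overlapped in both sexes. The UMIs came from 167 of 4329 cells in 13 libraries, at most 6 in a cell. Between genotypes the log2 fold change was 0.74 ± 0.59 (SE) in males and 0.58 ± 0.57 in females (edgeR adjusted p = 0.524 and 0.997), the male value was 0.18 without TG male replicate 1, and the female value turned to -0.39 without TG female replicate 1.

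Serping1, the inhibitor of C1r and C1s, was a gene of fibroblast-like and mural cells. Fibroblast-like cells had 43 of its 90 UMIs, at 144 ± 97.6 CPM (SD, n = 8 libraries), and mural cells 35, at 29.1 ± 30.6 CPM (n = 14). Mural cells were above the next class, astrocyte-like cells at 1.19 CPM (higher in 10 of 14 libraries, exact sign-flip adjusted p = 0.0198). Fibroblast-like and mural cells differed by 116 ± 109 CPM in the 8 libraries with both (adjusted p = 0.173). No Serping1 UMI was seen in 439 macrophage-like cells, which allows a share of up to 0.683%, or in 1105 oligodendrocyte precursor cells, up to 0.271%. These limits and the one for C3 below are on cells with a UMI, not on cells expressing the gene, and with the intervals below they cover counting error only.

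C3, the central component, was almost undetected. It gave 32 UMIs in all, 14 of them in 128 ependymal-like cells of 7 libraries, or 68.0 CPM over their summed counts. In the 4 libraries with at least 10 ependymal-like cells it was at 65.0, 65.4, 103 and 71.0 CPM. Microglia-like cells had 5 UMIs of C3, astrocyte-like cells 1, and neurons 0 of 1210 cells, which allows a share of up to 0.248%. The other 3 libraries gave its remaining 4 UMIs from at most 6 such cells each. Only 3 libraries had 10 cells of this class and of the next one, fibroblast-like cells, and their difference was 51.6 ± 58.8 CPM (SD, exact sign-flip p = 0.5).

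In male microglia-like cells all 3 C1q chains were higher and Itgam was lower in every TG library than in every WT library. C1qa was at 1595, 1888 and 1256 CPM in WT males (replicates 1, 2 and 4) and at 2822, 1937 and 3854 CPM in TG males (replicates 1 to 3). C1qb was at 1730, 1649 and 1111 CPM in WT males and at 3018, 2177 and 5284 CPM in TG males. C1qc was at 2095, 2096 and 1307 CPM in WT males and at 3022, 2136 and 3936 CPM in TG males. TG male replicate 3 was the highest for each chain, and TG male replicate 2, the lowest of the TG males, lay just above the WT males for C1qa and C1qc.

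Itgam was at 1398, 1708 and 1526 CPM in WT males and at 1028, 1058 and 903 CPM in TG males. C3ar1 was at 234 to 243 CPM in WT males and 259 to 346 CPM in TG males. C5ar1, at 46.7 to 81.9 and 73.5 to 102 CPM, overlapped. So 4 of the 6 members tested in microglia-like cells lay higher without overlap in TG males and 1 lower, where 16% of 5033 genes tested did so upward and 8.6% downward.

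None of these differences passed the test over all genes. The log2 fold change was 1.12 ± 0.35 (SE) for C1qb, 0.77 ± 0.31 for C1qa, 0.63 ± 0.32 for C1qc and -0.71 ± 0.24 for Itgam (edgeR quasi-likelihood test with Benjamini-Hochberg adjustment, adjusted p = 0.111, 0.199, 0.301 and 0.130). C3ar1 and C5ar1 had log2 fold changes of 0.21 ± 0.24 and 0.25 ± 0.39 (adjusted p = 0.700 and 0.790). A call needed an adjusted p under 0.05 and a log2 fold change of at least 0.5. By it 0 of the 6 members and 0.556% of all genes tested were called, and at an unadjusted p under 0.05 it was 3 members, C1qa, C1qb and Itgam, against 16.9% of all genes. The median log2 fold change was 0.44 over the 6 members and 0.01 over all genes. DESeq2 called C1qb and Itgam (adjusted p = 0.0467 and 0.0317), beside 1.79% of all genes. A fit of the males alone called C1qa, C1qb and Itgam (edgeR adjusted p = 0.0225, 0.00192 and 0.0331), beside 8.11% of all genes. Without TG male replicate 3 the values were 0.72 for C1qb, 0.52 for C1qa and -0.64 for Itgam, and with all 16 tables as labelled they were 0.84, 0.56 and -0.52.

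In females the same genes overlapped between genotypes. WT females varied widely, with C1qa at 2617, 4000 and 1225 CPM and C1qb at 3090, 5234 and 1275 CPM, replicate 2 being the highest and replicate 3 the lowest. TG females had C1qa at 2793, 1894, 2203, 3494 and 1799 CPM and C1qb at 3605, 1495, 2409, 3097 and 2412 CPM. Itgam was at 926, 1068 and 1401 CPM in WT females and between 1206 and 1482 CPM in TG females. The log2 fold changes were -0.07 ± 0.27 for C1qa, -0.25 ± 0.31 for C1qb, -0.13 ± 0.28 for C1qc and 0.24 ± 0.21 for Itgam (edgeR adjusted p = 0.999 each), with 0 of the 6 members and 0% of all genes called, and 0 members against 2.82% of all genes at an unadjusted p under 0.05. Without WT female replicate 2 the signs of the C1q values turned, to 0.34, 0.26 and 0.27.

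Whether the genotype difference itself differed between the sexes was tested as an interaction. The male minus female difference in log2 fold change was 1.38 ± 0.46 for C1qb, 0.84 ± 0.41 for C1qa, 0.76 ± 0.42 for C1qc and -0.95 ± 0.32 for Itgam (edgeR adjusted p = 0.203, 0.349, 0.403 and 0.205). No member and 0% of all genes were called, and 3 members against 14.3% of all genes had an unadjusted p under 0.05. Without WT female replicate 3, the library with the lowest C1q of the females, C1qa, C1qb and Itgam passed (edgeR adjusted p = 0.0425, 0.00861 and 0.0133), beside 8.75% of all genes.

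**Figure D3:**
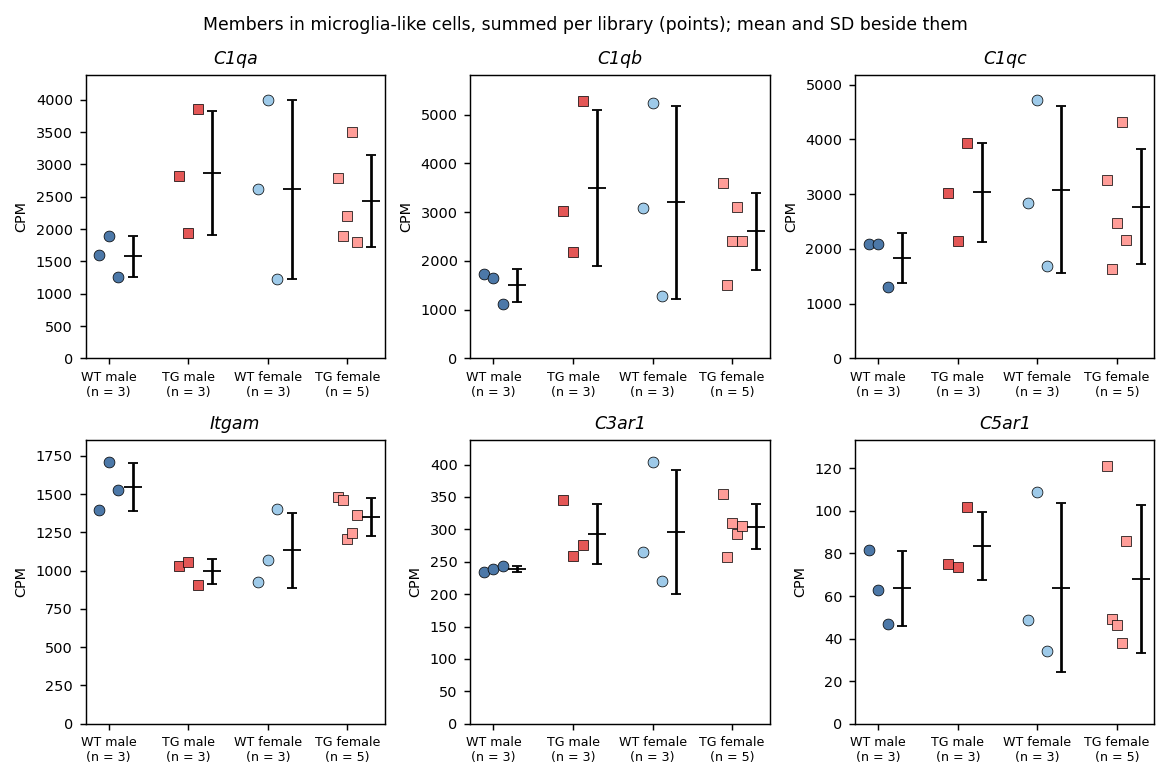
CPM of 6 members in microglia-like cells of each library (points), by group, with the mean and SD beside them; axes start at 0. The 3 TG males lie above the 3 WT males for C1qa, C1qb, C1qc and C3ar1 and below them for Itgam, while the female groups overlap.

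**Figure D4:**
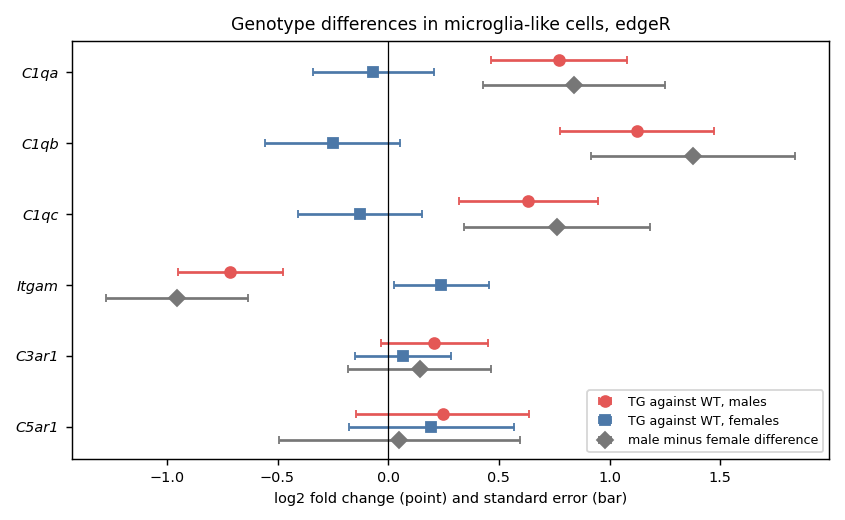
Log2 fold change of TG against WT in microglia-like cells of males (circles) and females (squares), and their difference (diamonds), with the standard error of the edgeR fit. The male values of the C1q chains are above 0 and that of Itgam below 0; none of the values shown had an adjusted p under 0.05.

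The RNA composition of the microglia-like cells separated the male groups but not the female ones. Ribosomal protein genes took 1.56% to 1.98% of their UMIs in WT males and 2.59% to 3.50% in TG males. Mitochondrial mRNA took 0.381% to 0.569% and 0.902% to 1.20%, and the nuclear RNA Malat1 was at 42830 to 49840 CPM in WT males and 19520 to 32050 CPM in TG males. In females ribosomal protein genes took 1.59% to 3.52% in WT and 1.87% to 3.12% in TG libraries. Mitochondrial mRNA took 0.425% to 1.10% and 0.691% to 0.938% there, and Malat1 was at 21950 to 47390 and 31360 to 41750 CPM. Over the 14 libraries the summed C1q level followed the ribosomal protein share (Pearson r = 0.908, permutation p = 4e-05; Spearman rho = 0.886, p = 5e-05; adjusted over the 4 relations computed, p = 0.00016 and 0.0002). Without WT female replicate 2 and TG male replicate 3, the libraries farthest from the median, r was 0.814, and over deviations from the group means it was 0.913. Itgam ran the other way (r = -0.763, rho = -0.710, permutation adjusted p = 0.0036 and 0.00985), with r = -0.683 without those libraries and -0.532 over deviations from the group means. C3ar1 rose with the share (r = 0.619, rho = 0.697, permutation adjusted p = 0.0236 and 0.00985, r = 0.577 without those libraries and 0.614 over the deviations). C5ar1 did not pass (r = 0.353, rho = 0.288, permutation adjusted p = 0.213 and 0.317), and its r was -0.0509 without those libraries. C1q and ribosomal protein levels are shares of the same UMI totals. The summed microglia markers overlapped between the male groups, at 12190 to 16510 CPM in WT and 14390 to 15980 CPM in TG males. The part of RNA composition in the genotype differences was not tested.

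**Figure D5:**
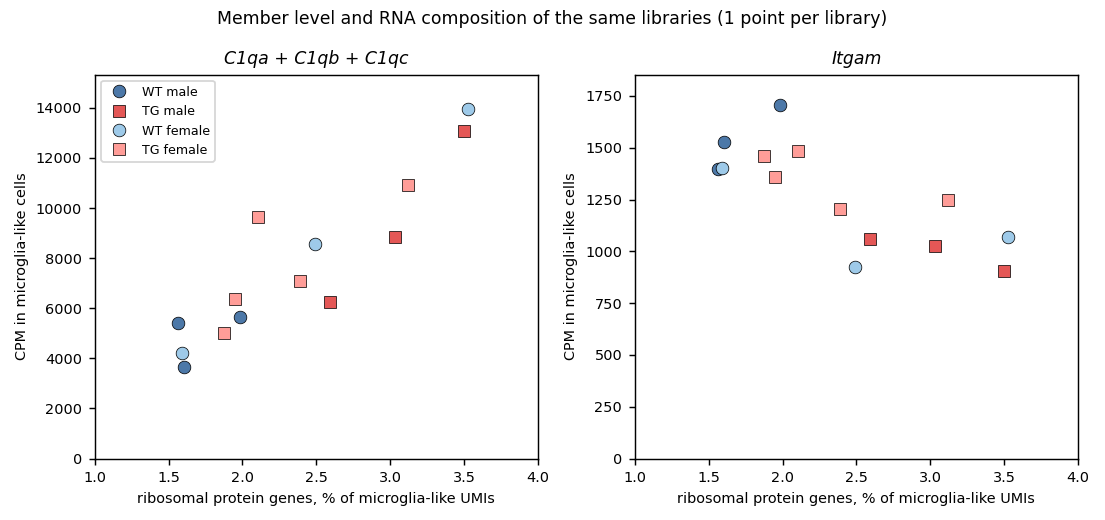
Summed CPM of the C1q chains (left) and CPM of Itgam (right) in microglia-like cells against the percent of those cells' UMIs from ribosomal protein genes, 1 point per library. C1q rises with this share (r = 0.908) and Itgam falls (r = -0.763), and the 3 WT males lie at 1.56% to 1.98%.

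The balance of the 3 chains was steadier than their level. C1qa made up 28.2% to 37.7% of the C1q UMIs of microglia-like cells over the 14 libraries, C1qb 28.4% to 40.4% and C1qc 30.1% to 40.4%. In males C1qb took 29.3% to 31.9% in WT and 34.1% to 40.4% in TG libraries, without overlap, and in females 30.4% to 37.5% and 28.4% to 37.8%. C1qc separated the male groups the other way, at 35.6% to 38.7% in WT and 30.1% to 34.2% in TG libraries. The shares of the 3 chains are parts of the same whole, so these are not separate results. They were not tested, and with 3 against 3 libraries an exact two-sided permutation p cannot go below 0.1.

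Over both sexes no member was called in microglia-like cells, with C1qb at a log2 fold change of 0.44 ± 0.23, C1qa at 0.35 ± 0.21 and Itgam at -0.24 ± 0.16 (edgeR adjusted p = 0.736, 0.743 and 0.781). Summed over all cells, C1qb and Itgam had log2 fold changes of 1.15 ± 0.40 and -0.68 ± 0.23 in males (edgeR adjusted p = 0.248 for both). In such sums the number of cells of a type and the RNA per cell cannot be told apart, and microglia-like cells were 27.4% to 30.1% of the cells in WT males and 17.6% to 30.4% in TG males. In all cells 5 of 8 members tested lay higher and 1 lower without overlap in TG males, beside 22.4% and 6.68% of all genes tested, and 3 had an unadjusted p under 0.05, beside 15.4%. C4b and Serping1 over all cells and both sexes were at 0.70 ± 0.37 and 1.17 ± 0.54 (edgeR adjusted p = 0.946 for both). In macrophage-like cells, with 7 to 343 UMIs of each chain per library, the male values were 1.45 ± 0.53 for C1qa, 1.75 ± 0.55 for C1qb and 1.301 ± 0.47 for C1qc (edgeR adjusted p = 0.182 each), and only C1qc separated the groups, at 726 to 1608 CPM in WT and 2267 to 4274 CPM in TG males, as did 22.3% of all genes tested upward. Without TG male replicate 3 these values were 0.80, 1.07 and 0.97, and without WT male replicate 2 those of C1qa and C1qb were 2.07 and 2.29. Macrophage-like cells, the mixed class described above, were 0.980% to 1.11% of the cells in WT males and 2.37% to 3.50% in TG males. The part of this share and of the mix of cells in the result was not tested. For this class 0% of all genes were called, and 19.3% of them and 3 of the 4 members had an unadjusted p under 0.05. In astrocyte-like cells, where C1q was low and its expression not tested, C1qa and C1qb had female values of -1.28 ± 0.59 and -1.25 ± 0.55 and male values of 1.53 ± 0.77 and 1.63 ± 0.68 (edgeR adjusted p of at least 0.216). In the 6 classes with a tested member and in all cells, 0 of 135 member fits of a genotype or sex contrast were called by edgeR, and the smallest adjusted p was 0.111, while DESeq2 called the 2 named above. In the same fits the share of all genes called was 0% in most. It was 0.0515% for the sex contrast of all cells, 0.0199% for both sexes in microglia-like cells, 0.251% for the sex contrast in macrophage-like cells, and, in astrocyte-like cells, 0.0994% for the sex contrast and 0.0249% for the interaction. In oligodendrocyte-like cells it was 0.0505% for males, 0.0253% for females, 0.455% for the interaction and 0.101% for the sex contrast. It was 0.12% for the sex contrast in endothelial-like cells, and 0.0539% each for the sex contrast and the interaction in mural cells. In all cells 4.22% of genes had an unadjusted p under 0.05 for both sexes, 1.74% for females, 12.7% for the interaction and 1.58% for the sex contrast, and the share over all of these fits lay between 1.58% and 19.3%, beside 26 of 135 member fits.

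No member was called between the sexes. In microglia-like cells the female minus male log2 differences, averaged over the genotypes, lay between -0.17 ± 0.27 for C5ar1 and 0.30 ± 0.23 for C1qb (edgeR adjusted p = 0.999 each). None of the 6 members was called or had an unadjusted p under 0.05, where 0.0993% and 2.7% of all genes did.

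Within microglia-like cells the members differed between the 2 clusters of the class, given here without a test because the clusters were made from the same cells. The larger cluster, led by Ccl4 and Il1a, had C3ar1 at 301 ± 54.1 CPM and C1qc at 2586 ± 1002 CPM (SD, n = 14). The smaller, led by P2ry12, had C3ar1 at 205 ± 68.5 CPM and C1qc at 3258 ± 1379 CPM. Itgam was at 1253 ± 243 and 1356 ± 276 CPM. The smaller cluster made up 15.4% to 26.2% of microglia-like cells in WT males and 11.2% to 20.0% in TG males.

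Cells with a UMI of Clec7a, Cst7 or Itgax, genes raised in activated microglia, were 1.01% to 9.39% of the microglia-like cells of a library. They were 1.01% to 2.31% in WT males and 4.17% to 9.39% in TG males. The female groups overlapped, at 1.04% to 4.00% in WT and 2.06% to 3.56% in TG females. The 230 cells described above, with Clec7a among their leading genes, were in the macrophage-like class and are not in these shares. The highest share was that of TG male replicate 3, whose microglia-like cells had the most UMIs each, and the part of depth in these shares was not tested. In the 10 libraries with at least 10 such cells, 184 cells in all, C1qc was at 3552 ± 1071 CPM in them and 3066 ± 938 CPM in the other microglia-like cells. The log2 difference was 0.21 ± 0.20 (SD, n = 10, higher in 8 of 10 libraries), and it did not pass (exact sign-flip adjusted p = 0.0703). With predicted doublets removed it did (exact sign-flip adjusted p = 0.0439). C1qb was at 0.17 ± 0.27, C1qa at 0.18 ± 0.47, C3ar1 at 0.11 ± 0.71 and Itgam at -0.31 ± 0.51 on the same scale, log2(CPM + 10) (exact sign-flip adjusted p = 0.193, 0.321, 0.734 and 0.193, n = 10). Cells with such a UMI were deeper, with a median of 656 against 521 UMIs. WT male replicates 2 and 4, with 5 and 7 such cells, were left out of this comparison. So were TG female replicate 2 and WT female replicate 3, with 7 each. Replicate 1 was the only WT male in it.

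Astrocyte-like cells with a UMI of Gfap, a marker of reactive astrocytes, numbered 101, and only 2 libraries had 10 or more, where the exact p cannot go below 0.5. Over all libraries C4b gave 7 UMIs in them, 67.4 CPM with an exact 95% Poisson interval of 27.1 to 139, and 87 UMIs in the 4440 others, 30.1 CPM with an interval of 24.1 to 37.1. The intervals overlapped. C3 gave 0 and 1 UMIs, and Serping1 0 and 4.

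The genes most like each member are given as a description, since classes and libraries share depth and cells. Over 10 classes Rgs10 and Ctss were among the 3 genes most like Itgam (Pearson r = 0.998 and 0.982 of mean log2(CPM + 1)). Those most like C1qa included Rgs10 and Ctss (r = 0.988 and 0.982), and those most like C1qb included Trem2 and Rgs10 (r = 0.978 and 0.977). C1qc was most like Adgre1, Lat2 and Lcp2 (r = 0.988 to 0.984). C3ar1 was most like Ccl3, Cd52 and Dock2 (r = 0.978 to 0.976), and Il4i1 and Gm27676 were among the 3 most like C5ar1 (r = 0.994 for both). C4b was most like Trpm1, Gm20627 and Slc5a11 (r = 0.939 to 0.920), Serping1 like Klhl30, Gm13470 and Itih2 (r = 0.995 to 0.992) and C3 like Musk, Tctex1d4 and Scnn1a (r = 0.986 to 0.982).

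Over the 14 libraries, within microglia-like cells, the order changed. C1qa was most like mt-Cytb, Rpl41 and Rps10, a mitochondrial and 2 ribosomal protein transcripts (Spearman rho = 0.969, 0.960 and 0.956). Selplg and Fcrls were among the 3 most like C1qb (rho = 0.991 and 0.939). C1qc was most like Rpl9-ps6, Fcrls and Selplg (rho = 0.956, 0.947 and 0.947) and Itgam like Sltm, Akap9 and Rrbp1 (rho = 0.925, 0.908 and 0.903). In oligodendrocyte-like cells C4b was most like Jam3, Rpl30 and Wscd1 (rho = 0.833, 0.789 and 0.789).

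Of 52 other complement genes listed, 40 had a row and 19 of these had under 50 UMIs. The 6 genes listed as terminal components of the membrane attack complex, C5 not among them, gave 3 UMIs, and only 2 of the 6 had a row. The 5 with the highest level in a class included Clu, a fluid-phase inhibitor of that complex, at 4364 ± 991 CPM in astrocyte-like cells, Calr, a chaperone that binds C1q, at 1479 ± 426 CPM in fibroblast-like cells (n = 8), Vtn at 1023 ± 717 CPM in mural cells, and the endocytic receptor Lrp1 at 389 ± 119 CPM in oligodendrocyte precursor cells (SD, n = 14). Of the 19 that passed the filter on low counts, 0 were called in 315 fits of a genotype or sex contrast (edgeR), where 0% to 0.556% of all genes were, with 0.082% for males and for both sexes and 0.164% for the sex contrast in oligodendrocyte precursor cells and 0.142% for the sex contrast in neurons, and 17 fits had an unadjusted p under 0.05, 11 upward and 6 downward. The smallest of these p belonged to Vtn in mural cells of males, with a log2 fold change of 1.72 ± 0.43 (edgeR adjusted p = 0.219).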

How the data were processed

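Cortical cells of 17-month-old THY-Tau22 and WT mice were profiled by Drop-seq. The deposited files hold UMI counts per gene and cell barcode, 3000 barcodes per table and 1041675 to 2237505 UMIs each, which the authors made with the Drop-seq pipeline. The build was mm10 per the submitters' processing notes; the pipeline version, the annotation, and strand and multi-mapping settings were not given in the sources used here.

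Barcodes with 200 to 7000 genes were kept, with no mitochondrial limit, and clustered without complement genes (2500 variable genes, 19 principal components, 20 neighbours, leidenalg 0.10.2 at resolution 0.5). Classes needed at least 3 markers and at least 1 in 2 of their list, raised by 1.5 on the log2 scale on average. Clusters also stayed unnamed if shallow without a leading marker, or if another class had more markers among their leading genes. The minimum of 1.5 was set after the data were seen. It left unnamed 4 clusters of mixed markers, 1.15% to 4.04% of the cells of a library (WT males 2.22% to 3.84%, TG males 1.15% to 2.74%, WT females 2.08% to 3.84%, TG females 1.67% to 4.04%). In 3 of them C1qb was at 1269 to 1397 CPM and 76.7% to 79.9% of cells were predicted doublets. Scrublet marked 5.16% of cells but only 0.0718% in TG male replicate 3 and 0.627% in TG female replicate 4, where it did not work; doublets were kept.

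UMIs were summed per library and class (at least 10 cells) and tested with edgeR 4.0.16 in R 4.3.3 (TMM, filterByExpr, quasi-likelihood fit over 4 groups, Benjamini-Hochberg over all genes), with DESeq2 1.42.0 as an alternative. Classes were compared within libraries by exact sign-flip tests. Tests were checked on simulated data. p-values measure the spread between libraries, 3 to 5 per group; depth was 755945 to 2089367 UMIs in kept cells of a library. Members and lists were chosen with earlier results of these data known. All 9 members are named, other complement genes if called or among the 5 highest, and the 3 genes most like each member. Some genes that these rules name are not reported here.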

Additional observations from a re-analysis of the deposited data

Results flagged for a closer look

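In 27 sets of 5 TG female values, 1 per member and class, the highest or lowest library was set against the rest by Dixon's criterion, which chance meets in about 1 of 20 such groups, and 2 libraries met it. C4b in oligodendrocyte-like cells of TG female replicate 1 was at 187.2 CPM, with the next TG female at 53.25 CPM. Without it the female log2 fold change of C4b went from 0.58 to -0.39. C1qa in astrocyte-like cells of TG female replicate 4 was at 79.95 CPM, with the next TG female at 17.95 CPM. That level lay within the range at which astrocyte-like cells carried microglia markers, and whether it reflects expression was not tested. Of 27 tests of whether the genotype difference of a member differed between the sexes, edgeR called 0 and 8 had an unadjusted p under 0.05. In the same fits 0% to 0.455% of all genes were called, and 9.06% to 18.5% had an unadjusted p under 0.05.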

How the results depend on the processing

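Of 1921 values recomputed for 89 results, 1838 kept their direction and their side of the threshold or stayed within the spread. This total does not measure how stable the results are. A result that did not pass was counted as kept if its sign held and it still did not pass. A finer clustering, or mixed clusters kept in their class, leaves the sums over all cells as they were, so those values could not move. The alternative that kept mixed clusters in their class was chosen after seeing the data. No paired analysis was possible because replicate numbers follow the order of accessions and mark no shared litter or day. The members called in microglia-like cells of males went from 0 to 2 with DESeq2 (C1qb and Itgam), to 1 with no low-count filter and to 1 with cells of 500 to 7000 genes (C1qb), to 3 with each sex fitted alone (C1qa, C1qb and Itgam), and lay between 0 and 1 on leaving out a library (C1qb, without WT female replicate 2 or 3). The share of all genes called was then 1.79%, 0.451%, 2.36%, 8.11%, and 1.88% or 3.3%, in this order. For all cells of males they went from 0 to 1 with no low-count filter and to 3 with each sex fitted alone, beside 1.03% and 6.08% of all genes. With no low-count filter they also went from 0 to 1 in macrophage-like cells of males and of both sexes, in mural cells of males and for the astrocyte interaction. Beside them 0.0501%, 0.0501%, 0.0578% and 0.176% of all genes were called, in this order. On leaving out a library the interaction calls lay between 0 and 3 in microglia-like cells, between 0 and 2 in all cells and between 0 and 2 in astrocyte-like cells, the highest always without WT female replicate 3, where 8.75%, 9.56% and 15.0% of all genes were called. The pairs of neighbouring classes told apart went from 10 to 3 with cells of 500 to 7000 genes, which left 6342 cells, and lay between 9 and 12 on leaving out a library. The calls between microglia-like cells with and without a UMI of Clec7a, Cst7 or Itgax went from 0 to 2 with predicted doublets removed (C1qc and C4b, which before removal had 0 UMIs in the cells with and 10 in the cells without).

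The following values changed sign, none of them past the threshold. With cells of 500 to 7000 genes the microglia minus macrophage difference was -198 CPM for C1qa, -262 CPM for C1qb and -89.5 CPM for C1qc, and the macrophage minus astrocyte difference of C4b was -0.708 CPM. At Leiden resolution 1.0 the oligodendrocyte minus macrophage difference of C4b was -84.8 CPM and the macrophage minus microglia difference of C3ar1 was -63.0 CPM. With mixed clusters kept in their class the former was -0.679 CPM. With cells of at least 500 UMIs the log2 difference of C3ar1 between cells with and without a UMI of Clec7a, Cst7 or Itgax was -0.247. On leaving out a library, the female log2 fold changes in microglia-like cells lay between -0.37 and 0.34 for C1qa, between -0.59 and 0.26 for C1qb, between -0.38 and 0.27 for C1qc, between -0.064 and 0.31 for C3ar1 and between -0.14 and 0.81 for C5ar1. That of C4b in oligodendrocyte-like cells lay between -0.39 and 1.13, its oligodendrocyte minus macrophage difference between -8.38 and 18.7 CPM, and the C3ar1 difference by Clec7a, Cst7 or Itgax between -0.0202 and 0.23. The cause of these changes was not tested.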

Other observations

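The cells that stayed unnamed also carried members. A cluster led by Kif5a and Fabp7, with 846 cells, among them 28.7% of the cells of TG male replicate 3, held C4b at 51.6 CPM and C1qb at 308 CPM. A cluster of 156 cells led by the proliferation genes Top2a and Mki67 held C1qc at 651 CPM, C3ar1 at 174 CPM and no C4b UMI. The pair of tables that shared their barcodes, left out of the comparisons, gave microglia-like C1qb at 2021 and 1863 CPM and Itgam at 1242 and 1267 CPM under their opposite genotype labels.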
